A study of Mus musculus with 4 samples.

Results

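The genes described here are the MAP kinase cascade and the dual-specificity phosphatases of mouse tibialis anterior (TA) muscle. They were taken from the count table by symbol, as every gene whose name begins with Map2k, Map3k, Map4k, Mapk, Mapkapk or Dusp followed by a digit. The rule found 62 of the 13825 genes in the table. Of these, 40 were kinases, namely 5 MAP4K, 15 MAP3K, 7 MAP2K, 10 MAPK and 3 MAPKAPK genes, and 17 were dual-specificity phosphatases. The other 5 matched by name without being a kinase or a phosphatase: the scaffold genes Mapk8ip1 and Mapk8ip3, the interactor genes Mapk1ip1 and Mapk1ip1l, and the antisense gene Map2k3os. Every gene of the table had a read in all 4 libraries, so a gene without reads in any of them could not be found. Mapk10, Mapk13 and Dusp9 were among the symbols of the family that were not in the table. Listed fast-fibre genes such as Ckm, Acta1 and Myh4 were not in it either. Absence from the table therefore does not show that a gene had no reads, and why these genes were absent was not given. Beyond that, no member was selected by its measured level.

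RNA came from TA muscle of WT mice (C57BL/6J) and of Fgf21KO mice, which lack the hormone FGF21 in the whole body, taken 14 days after surgery in adult males. The WT groups are called WS (sham) and WD (denervated), and the Fgf21KO groups KS (sham) and KD (denervated). In the denervated leg a piece of the sciatic nerve was removed, and the sham muscle came from the opposite leg of the operated mice, so a sham and a denervated library share their animals. The labels describe that leg as left innervated, while the methods describe the same operation without transection. The RNA of 4 muscles was pooled for each group, so each group was 1 library. The strain background of the Fgf21KO mice was not given in the sources used here, and the genotype labels were not checked on Fgf21, which was not analysed here.

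In this cascade a signal passes from MAP4K or other upstream kinases to MAP3K, then to MAP2K and then to MAPK, each kinase phosphorylating the next. The end kinases fall into the ERK, JNK and p38 families, and some of them phosphorylate further kinases such as the MAPKAPKs. Dual-specificity phosphatases of the MAP kinase phosphatase group remove both activating phosphates from a MAPK, and several of them are themselves induced by the pathways they switch off. FGF receptors signal through the ERK branch, and p38 and JNK respond to stress, contraction and cytokines in muscle. mRNA levels do not report phosphorylation, and kinase activity was not measured in these libraries.

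The total count over the genes analysed ran from 25249879 (WS) to 34141303 (KS). Mitochondrially encoded genes took 27.3% of the counts in WS and 30.8% in KS, against 19.6% in WD and 20.8% in KD. All 62 members had a mean count of at least 10, as did 13084 genes in all, and the lowest count of any member in a library was 8. Levels are given as CPM, which are counts divided by library size after TMM scaling, a correction for differences in library composition. Ratios between 2 libraries are log2 ratios of CPM at a prior count of 2, called at 2-fold or more, with 95% intervals that cover counting error only. With 1 library per group no such ratio has a replicate check. The effect of surgery over both genotypes was tested in an additive model of genotype and surgery by the quasi-likelihood test of edgeR, and a gene was taken as changed at an adjusted p below 0.05 and at least 2-fold. Its p-values measure the spread left after genotype and surgery, which has 1 residual degree of freedom, and not the spread between mice. That degree of freedom is the difference in response between genotypes, and the model takes the response to be alike in both. The spread of a gene was estimated with information shared over all genes tested.

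The labelled tissue was checked on the marker genes found in the table. Myh1 and Mylpf, the 2 of 9 listed fast-fibre genes that were matched, summed to 33830 CPM in WS and 31685 in KS, against 20923 in WD and 23091 in KD. Of the genes that mark denervated fibres, 3 of 8 were matched (Runx1, Ncam1 and Hdac4), and their sum was 56.3 CPM in WS and 51.2 in KS against 557 in WD and 581 in KD, with all 3 at least 2-fold higher in both genotypes. The denervated-fibre genes were thus high in the libraries labelled denervated.

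With denervation, large ratios were more frequent among the MAP kinase phosphatases than among the kinases, and lay in both directions. Dusp4, Dusp2 and Dusp5 rose, and Dusp7, Dusp8 and Dusp10 fell, so 6 of 9 members of this group (66.7%) were at least 2-fold apart in each genotype. Scaled by total counts alone, Dusp10 was under 2-fold in WT (-0.87). Of the 40 kinases, 5 (12.5%) were at least 2-fold apart in WT and 6 (15.0%) in Fgf21KO, where 14.8% and 13.6% of all genes tested were. The shares of kinases were thus close to those of all genes. Mapk4 and Map4k4 rose, and the p38 branch genes Map2k6, Mapk14 and Mapkapk2 fell. Between genotypes 1 member was 2-fold apart in sham muscle and 0 in denervated muscle, where 2.04% and 1.55% of all genes were.

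Because promoter sequence is the stretch through which such genes are switched on and off, the windows of 5 of these phosphatase genes are shown. They are the genes among the 6 for which the RefSeq table held a promoter, that is 2 that rose (Dusp2 and Dusp5) and 3 that fell (Dusp7, Dusp8 and Dusp10). Each runs from 250 to 51 bases upstream of the RefSeq start on GRCm38.p6, in the direction of transcription, and stops there to keep clear of transcribed leader sequence. Capitals mark matches to the motifs searched on both strands.
Dusp2 (chr2:127335909-127336108, + strand): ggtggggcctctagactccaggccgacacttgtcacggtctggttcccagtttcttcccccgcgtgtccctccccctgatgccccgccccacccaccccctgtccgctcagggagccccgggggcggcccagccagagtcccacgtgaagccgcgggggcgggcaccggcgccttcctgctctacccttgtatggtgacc
Dusp5 (chr19:53528895-53529094, + strand): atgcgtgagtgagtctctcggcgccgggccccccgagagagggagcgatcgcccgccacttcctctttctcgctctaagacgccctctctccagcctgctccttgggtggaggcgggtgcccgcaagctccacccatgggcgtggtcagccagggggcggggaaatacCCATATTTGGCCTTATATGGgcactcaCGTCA
Dusp7 (chr9:106368382-106368581, + strand): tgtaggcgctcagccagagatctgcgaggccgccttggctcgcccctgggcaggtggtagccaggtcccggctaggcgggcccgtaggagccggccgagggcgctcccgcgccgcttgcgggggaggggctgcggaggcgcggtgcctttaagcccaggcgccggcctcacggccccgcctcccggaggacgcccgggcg
Dusp8 (chr7:142095335-142095534, - strand): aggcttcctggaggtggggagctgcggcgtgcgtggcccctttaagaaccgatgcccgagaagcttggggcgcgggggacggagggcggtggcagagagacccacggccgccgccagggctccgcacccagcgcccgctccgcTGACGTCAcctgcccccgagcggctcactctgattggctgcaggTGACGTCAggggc
Dusp10 (chr1:184034131-184034330, + strand): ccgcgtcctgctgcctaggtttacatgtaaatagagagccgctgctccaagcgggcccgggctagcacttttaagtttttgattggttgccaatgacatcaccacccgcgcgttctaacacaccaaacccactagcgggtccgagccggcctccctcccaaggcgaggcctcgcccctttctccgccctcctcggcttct

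The motifs searched were AP-1 (TGANTCA), the cyclic AMP response element CRE (TGACGTCA), its core (TGACG), the E-box CAGCTG, the RUNX motif TGTGGT and the CArG box, which is bound by serum response factor. Over 32851 promoters of the table in the same window, 5.57% held the AP-1 motif, 0.828% the CRE, 12.7% its core, 10.3% the E-box, 11.6% the RUNX motif and 1.16% a CArG box. The Dusp8 window held 2 full CREs, at 107 to 100 and 63 to 56 bases upstream, each of which also contains the core on both strands. The Dusp5 window held 2 adjacent CArG boxes, at 82 to 73 and 72 to 63 bases upstream, and a CRE core on the opposite strand at 55 to 51. None of these motifs was found in the Dusp2, Dusp7 and Dusp10 windows. In these windows Dusp2 and Dusp5, which rose, therefore shared no searched motif, and neither did Dusp7, Dusp8 and Dusp10, which fell. Dusp4, which also rose, had no window. In GENCODE M21 the Dusp8 and Dusp10 genes start further upstream, at chr7:142095843 and chr1:184013302, so their windows lie within the annotated genes. Sequence at those starts was not searched. GC content was 71.0% for Dusp2, 64.5% for Dusp5, 77.5% for Dusp7, 72.0% for Dusp8 and 60.0% for Dusp10, against a median of 51.5% over all promoters. The Dusp5 window lies within an antisense gene of GENCODE M21 that also overlaps the start of Dusp5. Whether counting used strand was not given in the sources used here, so part of the Dusp5 count may belong to that gene.

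In WT muscle 14 members (22.6%) were at least 2-fold apart between WD and WS, 4 higher and 10 lower, where 14.8% of all genes tested were (7.18% higher and 7.61% lower). In Fgf21KO muscle 15 members (24.2%) were at least 2-fold apart between KD and KS, 5 higher and 10 lower, against 13.6% of all genes (7.51% higher and 6.1% lower). Scaling by total counts alone, which moves the median of all genes to 0.29 in WT and 0.36 in Fgf21KO, gave 6 higher and 2 lower in WT and 6 higher and 4 lower in Fgf21KO. Members at least 2-fold apart in the same direction in both genotypes numbered 12, with Dusp2, Dusp4, Dusp5 and Mapk4 higher and Map2k6, Mapk14, Mapkapk2, Dusp7, Dusp8, Dusp10, Dusp14 and Dusp23 lower. Over all genes 9.09% were apart in both, 5.1% higher and 3.99% lower. The 2 genotypes have no library in common. Of the 62 members, 45 lay in the same direction in both with both counting intervals leaving out 0. In opposite directions 0 members did so. Over all genes 6965 of 13084 (53.2%) lay in the same direction in both with both intervals leaving out 0. The share of all genes in opposite directions was not counted, so the 0 members cannot be set against it.

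Over both genotypes the additive test called 16 members (25.8%), 5 higher and 11 lower, where 13.1% of all genes were called (6.84% higher and 6.24% lower). With total counts alone it called 9, 6 higher and 3 lower, and all 16 kept their sign in both genotypes under that scaling. The 8 that were then under 2-fold were Mapkapk2 (-0.99), Dusp14 (-0.96), Dusp23 (-0.89), Mapk14 (-0.84), Map2k6 (-0.82), Mapk8ip1 (-0.79), Map2k3os (-0.78) and Map3k6 (-0.68), and Map3k1 was gained (1.25), while Dusp7, Dusp8 and Dusp10 were still called lower. By adjusted p alone 43 members passed, 13 above and 30 below 0, where 53.5% of all genes did, 26.6% above and 27.0% below. The median log2 ratio of the members was -0.30 in WT and -0.25 in Fgf21KO, beside 0.01 and 0.01 over all genes tested. With total counts alone it was -0.02 and 0.11, beside the shifted medians of 0.29 and 0.36. The median size of the ratio, without its sign, was 0.494 and 0.511 for the members and 0.398 and 0.391 for all genes.

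**Figure D1:**
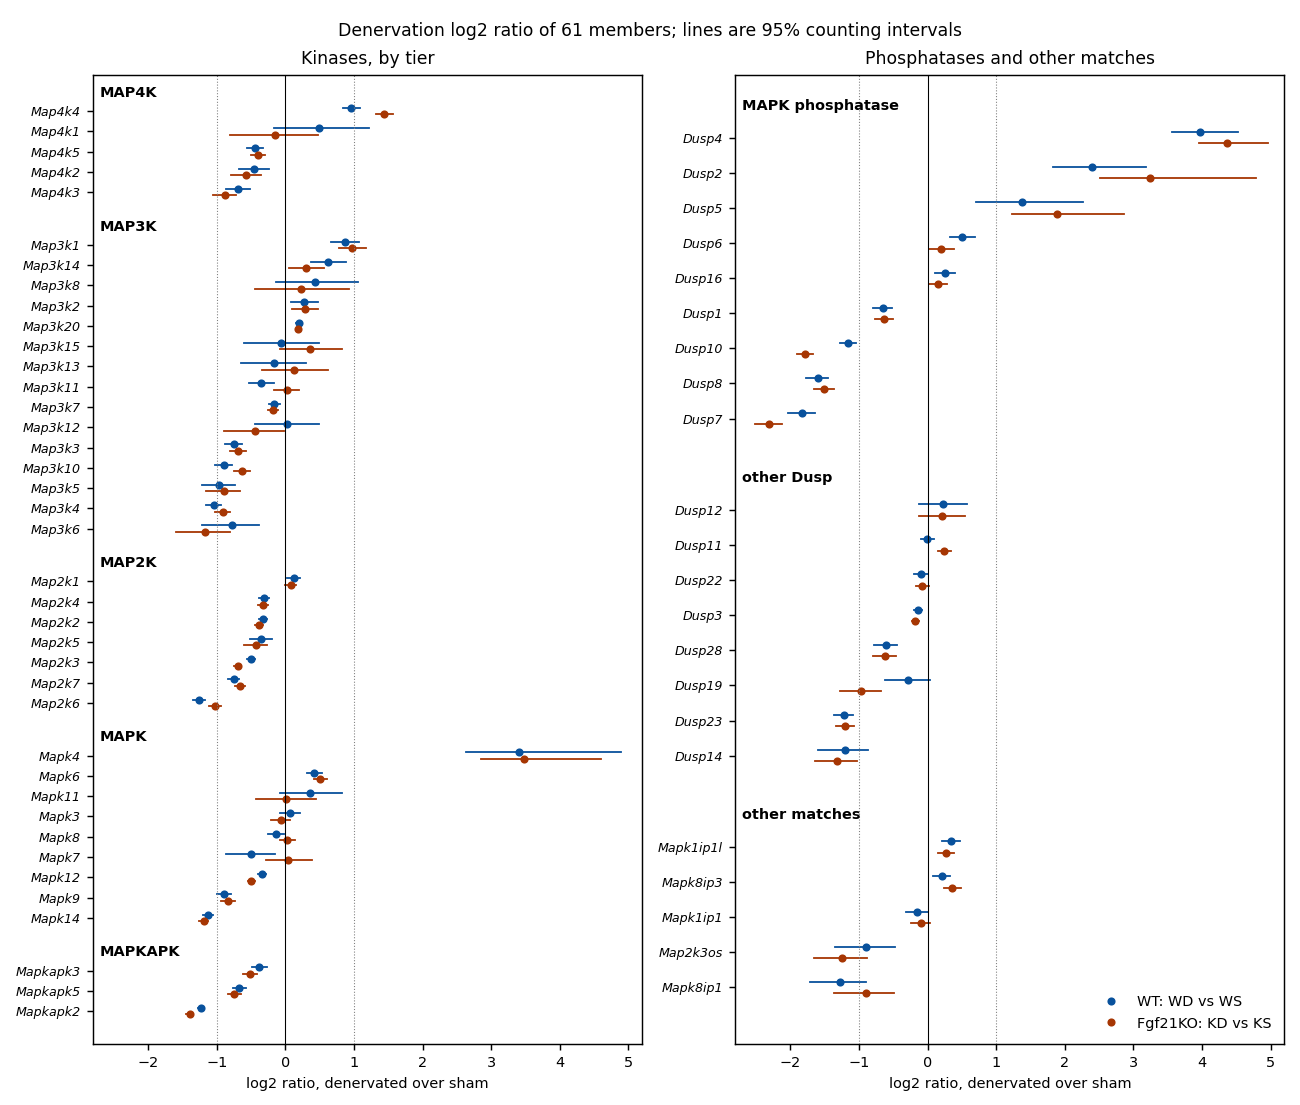
Log2 ratio of denervated over sham muscle (x axis) for 61 members (rows), grouped by tier, in WT (blue) and Fgf21KO (red). Lines are 95% counting intervals and dotted lines mark 2-fold. The MAP kinase phosphatases spread from -2.31 to 4.36, while most kinases lie between the dotted lines.

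Among the phosphatases, Dusp4 had the highest ratio. Dusp4 encodes a nuclear phosphatase of ERK, JNK and p38 and lies at chr8:34807297-34819894 on the + strand of GRCm38. It had 39 counts in WS (1.68 CPM) and 36 in KS (1.21 CPM), against 889 in WD (27.2 CPM) and 813 in KD (26.3 CPM). Both denervated libraries were far above both sham libraries, and the denervated libraries of the 2 genotypes were close to each other. The log2 ratio was 3.97 (3.56 to 4.52) in WT and 4.36 (3.96 to 4.96) in Fgf21KO, and Dusp4 rose by 4.23 over both genotypes (edgeR adjusted p = 7.93e-19).

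Dusp2 encodes another nuclear phosphatase, known from activated immune cells. It had 22 counts in WS (0.947 CPM) and 8 in KS (0.269 CPM), against 172 in WD (5.27 CPM) and 97 in KD (3.14 CPM). Both Fgf21KO libraries were below the WT library of the same surgery. The log2 ratio with denervation was 2.39 (1.83 to 3.19) in WT and 3.24 (2.51 to 4.79) in Fgf21KO, and Dusp2 rose by 2.87 over both genotypes (edgeR adjusted p = 1.65e-08). The sum of the macrophage markers rose as well. All 8 listed genes were measured, and they summed to 29.0 CPM in WS and 28.5 in KS, against 64.9 in WD and 65.5 in KD, with 4 of 8 at least 2-fold higher in WT and 5 of 8 in Fgf21KO. Cd68, the most raised of them, went from 23 to 350 counts in WT and from 32 to 333 in Fgf21KO. The single markers were uneven. Itgam had ratios of 0.01 (-0.63 to 0.67) in WT and 2.31 (1.57 to 3.58) in Fgf21KO, and Csf1r of 1.05 and 0.45. The part of these cells in the Dusp2 level was not tested. In whole muscle, fewer or more cells of a type and less or more RNA per cell cannot be told apart, which holds for every member.

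Dusp5, a nuclear phosphatase selective for ERK, had 19 counts in WS and 17 in KS, against 73 in WD and 71 in KD. These low counts gave wide intervals, with log2 ratios of 1.38 (0.71 to 2.26) in WT and 1.88 (1.22 to 2.86) in Fgf21KO. Dusp5 rose by 1.72 over both genotypes (edgeR adjusted p = 0.000159). In the second deposited table, where 1 is added before the log, its WT ratio was 0.82 and under 2-fold. Dusp1, the fourth nuclear and inducible phosphatase of the group, was on the other side of 0, with 40.0 CPM in WS and 40.0 in KS, against 25.5 in WD and 25.8 in KD and ratios of -0.65 and -0.63. The nuclear phosphatases thus did not share a direction.

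The cytoplasmic ERK phosphatases Dusp6 and Dusp7 also differed from each other. Dusp7 (chr9:106368632-106375724, + strand) had 782 counts in WS (33.7 CPM) and 1187 in KS (40.0 CPM), against 307 in WD (9.4 CPM) and 248 in KD (8.02 CPM). Its sham and denervated libraries did not overlap, and the 2 genotypes lay further apart in sham than in denervated muscle on the CPM scale. The log2 ratio was -1.83 (-2.03 to -1.65) in WT and -2.31 (-2.52 to -2.12) in Fgf21KO, and Dusp7 fell by 2.08 over both genotypes (edgeR adjusted p = 6.99e-15), the lowest value of any member. Dusp6, a feedback gene of FGF signaling, had ratios of 0.50 (0.32 to 0.69) and 0.20 (0.03 to 0.38), with an additive log2 fold change of 0.35.

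Of the phosphatases selective for JNK and p38, Dusp8 and Dusp10 fell. Dusp10 was the most abundant MAP kinase phosphatase per kilobase of exon in sham muscle, with 1512 counts in WS (65.1 CPM) and 2506 in KS (84.4 CPM), against 954 in WD (29.2 CPM) and 755 in KD (24.4 CPM). KS was the highest library and KD the lowest. The log2 ratio was -1.15 (-1.27 to -1.04) in WT and -1.79 (-1.91 to -1.67) in Fgf21KO, and Dusp10 fell by 1.47 over both genotypes (edgeR adjusted p = 6.67e-13). With total counts alone the WT ratio of Dusp10 was -0.87, under 2-fold. Its share of the summed CPM per kilobase of the 9 MAP kinase phosphatases was 33.1% in WS and 37.9% in KS, against 19.6% in WD and 17.8% in KD.

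Dusp8 had 1011 counts in WS (43.5 CPM) and 1383 in KS (46.6 CPM), against 467 in WD (14.3 CPM) and 506 in KD (16.4 CPM). Within each surgery the genotypes were close, and the ratios were -1.60 (-1.77 to -1.45) and -1.51 (-1.66 to -1.36). Dusp8 fell by 1.56 over both genotypes (edgeR adjusted p = 4.91e-14). Dusp16, the third of this kind, had ratios of 0.25 and 0.15 and was not called.

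The other 8 dual-specificity phosphatases lack the kinase-binding domain of the MAP kinase phosphatases, and 2 of them fell. Dusp23 had 45.1 CPM in WS and 47.4 in KS, against 19.3 in WD and 20.6 in KD, with ratios of -1.22 and -1.20. Dusp14 had 7.45 CPM in WS and 10.2 in KS, against 3.19 in WD and 4.04 in KD, with ratios of -1.21 and -1.32. Both were at lower levels in each denervated library than in either sham library. Dusp3, which dephosphorylates ERK and JNK, was the most abundant of these genes per kilobase, at 41.9 CPM per kilobase in WS and 41.6 in KS, against 38.1 in WD and 36.7 in KD, and its ratios of -0.14 and -0.18 turned to 0.15 and 0.18 with total counts alone. The remaining 5 genes ranged from -0.96 (Dusp19, Fgf21KO) to 0.24 (Dusp11, Fgf21KO).

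**Figure D2:**
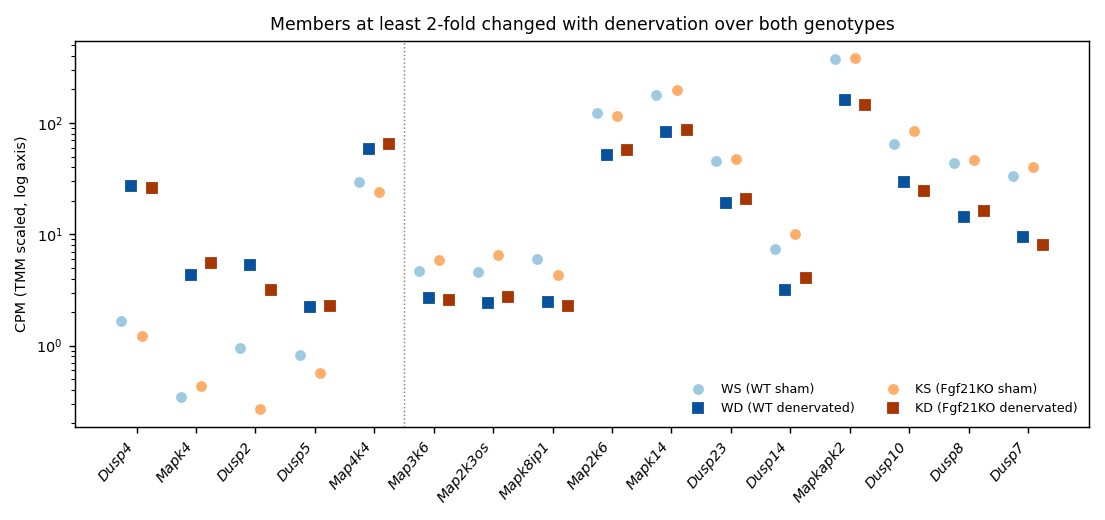
CPM (log axis, TMM scaled) of the 16 members called over both genotypes, in WS, WD, KS and KD, with circles for sham and squares for denervated muscle. Left of the dotted line both squares lie above both circles for the 5 genes that rose, and right of it both lie below them for the 11 that fell.

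The MAPK tier held 1 gene that rose and 1 that fell. Mapk4 encodes ERK4, an atypical MAPK whose partner is the kinase MK5. It had 8 counts in WS (0.344 CPM) and 13 in KS (0.438 CPM), against 141 in WD (4.32 CPM) and 172 in KD (5.56 CPM). Both sham libraries were near the limit of counting, and the ratios of 3.41 (2.63 to 4.89) and 3.47 (2.85 to 4.61) carry wide intervals. Mapk4 rose by 3.65 over both genotypes (edgeR adjusted p = 1.12e-10). Its relative Mapk6 (ERK3) was more abundant, at 49.4 CPM in WS and 47.0 in KS, against 66.3 in WD and 67.0 in KD, with ratios of 0.42 and 0.51. Mapkapk5, which encodes MK5, had ratios of -0.67 and -0.74.

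Mapk14 encodes p38 alpha and lies at chr17:28691329-28748406 (+ strand). It had 4182 counts in WS (180 CPM) and 5907 in KS (199 CPM), against 2692 in WD (82.5 CPM) and 2695 in KD (87.1 CPM). The sham libraries were both more than 2-fold above the denervated ones. The ratio was -1.13 (-1.20 to -1.06) in WT and -1.19 (-1.26 to -1.12) in Fgf21KO, and Mapk14 fell by 1.16 over both genotypes (edgeR adjusted p = 5.54e-14). Mapk12, the p38 gamma gene that is typical of skeletal muscle, was the most abundant MAPK per kilobase, at 103 CPM per kilobase in WS and 108 in KS, against 81.3 in WD and 76.5 in KD. Its ratios were -0.34 and -0.49. Its share of the summed CPM per kilobase of Mapk11, Mapk12 and Mapk14 was 70.2% in WS and 69.0% in KS, against 79.4% in WD and 77.7% in KD. Mapk11, p38 beta, had 65, 118, 89 and 93 counts in WS, WD, KS and KD. Its ratios were 0.36 (-0.08 to 0.83) in WT and 0.005 (-0.43 to 0.44) in Fgf21KO, and both intervals held 0.

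Mapk3, which encodes ERK1, had 27.0 and 28.8 CPM in WS and KS, against 28.3 and 27.5 in WD and KD. Its ratios were 0.07 (-0.08 to 0.21) and -0.07 (-0.21 to 0.07), and both intervals held 0. Mapk7, which encodes ERK5, had 134 counts in WS and 146 in KS, against 132 in WD and 157 in KD. After scaling, its ratios were -0.51 (-0.87 to -0.15) in WT and 0.05 (-0.29 to 0.38) in Fgf21KO.

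Of the JNK genes, Mapk8 (JNK1) and Mapk9 (JNK2) were measured. Mapk9 had 77.8 CPM in WS and 74.8 in KS, against 41.9 in WD and 41.8 in KD, and its ratios of -0.89 (-0.997 to -0.792) and -0.84 (-0.94 to -0.74) stayed under 2-fold. Mapk8 had 48.9 CPM in WS and 44.4 in KS, against 44.5 in WD and 45.2 in KD, with ratios of -0.14 and 0.02. Mapk9 made up 66.1% of their summed CPM per kilobase in WS and 67.4% in KS, and 53.6% in WD and 53.2% in KD. The 2 JNK genes were therefore nearer to equal levels in denervated than in sham muscle.

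Above p38 in the cascade, Map2k3 and Map2k6 encode MKK3 and MKK6. Map2k6 (chr11:110399122-110525522, + strand) had 2883 counts in WS (124 CPM) and 3451 in KS (116 CPM), against 1698 in WD (52.0 CPM) and 1766 in KD (57.1 CPM). Its ratios were -1.25 (-1.34 to -1.17) and -1.02 (-1.11 to -0.94), and Map2k6 fell by 1.14 over both genotypes (edgeR adjusted p = 4.17e-13). Map2k3, the most abundant MAP2K per kilobase, was at 95.7 CPM per kilobase in WS and 103 in KS, against 67.6 in WD and 63.3 in KD, with ratios of -0.50 and -0.70. The JNK activators Map2k7 (-0.75 and -0.66) and Map2k4 (-0.31 and -0.33) and the ERK5 activator Map2k5 (-0.36 and -0.43) were below 0 as well. The ERK activators were divided, with Map2k2 at -0.32 and -0.38 and Map2k1 at 0.12 and 0.08. Thus 6 of 7 MAP2K genes were below 0 in each genotype, where 6477 (WT) and 6433 (Fgf21KO) of the 13084 genes tested were. With total counts alone it became 5 of 7 in Fgf21KO, where Map2k4 changed sign. Under that scaling the median of all genes was 0.29 in WT and 0.36 in Fgf21KO.

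Below p38, Mapkapk2 encodes MK2, a p38 substrate that controls the stability of cytokine mRNAs. It had 8785 counts in WS (378 CPM) and 11330 in KS (381 CPM), against 5267 in WD (161 CPM) and 4495 in KD (145 CPM). The 2 sham libraries were nearly equal and so were, less closely, the denervated ones. The ratio was -1.23 (-1.28 to -1.18) in WT and -1.39 (-1.44 to -1.34) in Fgf21KO, and Mapkapk2 fell by 1.31 over both genotypes (edgeR adjusted p = 3.7e-15). All 3 MAPKAPK genes were below 0 in both genotypes under either scaling. With TMM, 6477 (WT) and 6433 (Fgf21KO) of the 13084 genes tested were below 0. The summed level of the 3 genes was 188.7 CPM per kilobase in WS and 190.6 in KS, against 94.8 in WD and 87.2 in KD.

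**Figure D3:**
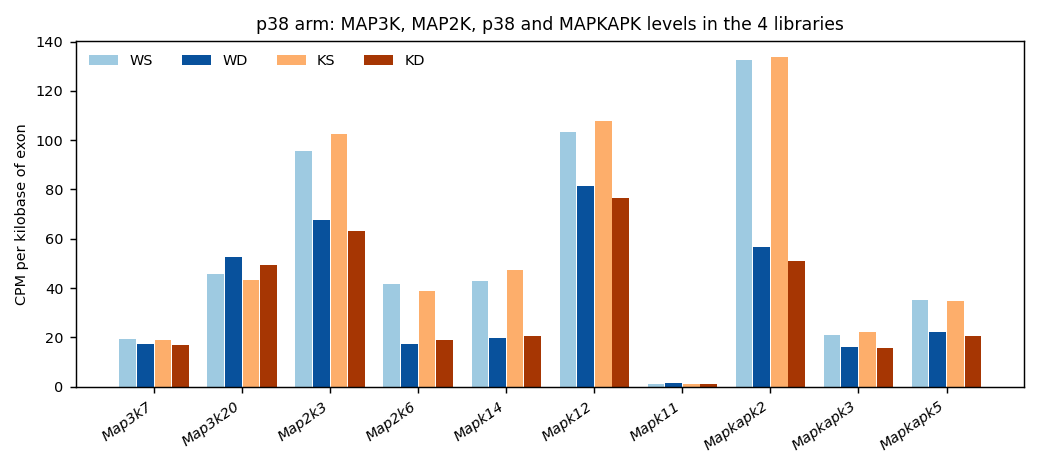
CPM per kilobase of exon (bars from 0) for genes of the p38 branch in WS, WD, KS and KD. The WD and KD bars of Map2k6, Mapk14 and Mapkapk2 are lower than the sham bars by at least 2-fold, and those of Mapk12 by less.

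Cells other than fibres also differed between the libraries. Endothelial markers (5 of 5 measured) summed to 448 CPM in WS and 360 in KS, against 202 in WD and 195 in KD, and smooth muscle and pericyte markers (4 of 4) to 678 and 630 in WS and KS, against 284 and 280 in WD and KD. Fibroblast and fibro-adipogenic progenitor markers (6 of 6) summed to 619 and 596 in WS and KS, against 404 and 421 in WD and KD. At least 2-fold lower in WT and Fgf21KO were 3 and 1 of the 5 endothelial markers and 4 and 3 of the 4 smooth muscle and pericyte markers. Of the 6 fibroblast and progenitor markers 1 and 0 were. Pdgfra among them had ratios of -0.40 and -0.31, and Lum of -0.44 and 0.15. The sums of these lists moved in the same direction as the members that fell, and their part in those results was not tested.

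At the top of the cascade, Map4k4 encodes a kinase upstream of JNK. It had 690 counts in WS (29.7 CPM) and 710 in KS (23.9 CPM), against 1890 in WD (57.9 CPM) and 2013 in KD (65.1 CPM). The ratio was 0.96 (0.84 to 1.09) in WT and 1.44 (1.32 to 1.57) in Fgf21KO, and Map4k4 rose by 1.21 over both genotypes (edgeR adjusted p = 1.32e-11). The other 4 MAP4K genes ranged from -0.88 (Map4k3, Fgf21KO) to 0.49 (Map4k1, WT), and Map4k5 was the most abundant per kilobase, at 11.8 CPM per kilobase in WS and 12.5 in KS, against 8.74 in WD and 9.5 in KD. Map4k1, a kinase of blood cells, had only 28, 56, 45 and 42 counts in WS, WD, KS and KD.

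The 15 MAP3K genes were divided in direction. Map3k20, which encodes the ribotoxic stress kinase ZAK, had the highest level per kilobase, at 45.8 CPM per kilobase in WS and 43.2 in KS, against 52.5 in WD and 49.3 in KD, with ratios of 0.20 (0.16 to 0.23) and 0.19 (0.15 to 0.23). Its share of the tier was 37.1% in WS and 36.9% in KS, and 48.4% in WD and 46.8% in KD. Map3k6, a relative of the stress kinase ASK1, had 109 counts in WS and 176 in KS, against 88 in WD and 80 in KD. Map3k6 fell by 1.002 over both genotypes (edgeR adjusted p = 0.000419), which is at the fold threshold, and it was not called without the filter on low counts, at a mean count of at least 50 or with total counts alone (-0.68). Map3k4, which Gadd45 proteins activate, had 70.4 CPM in WS and 64.9 in KS, against 34.1 in WD and 34.5 in KD, with ratios of -1.05 (-1.16 to -0.94) and -0.91 (-1.02 to -0.80). Map3k1, upstream of JNK, had the highest ratios of the tier, 0.87 and 0.97.

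Among the 5 other matches, Mapk8ip1 encodes JIP1, a scaffold that holds JNK and its upstream kinases together. It had 140 counts in WS and 127 in KS, against 80 in WD and 70 in KD, and Mapk8ip1 fell by 1.11 over both genotypes (edgeR adjusted p = 0.000175). Map2k3os, an antisense gene that begins beside Map2k3 on the opposite strand, had 106, 79, 194 and 84 counts in WS, WD, KS and KD and fell by 1.10 (edgeR adjusted p = 0.000132). In GENCODE M21 the 2 genes lie side by side without overlap. With total counts alone neither gene was called, at -0.79 for Mapk8ip1 and -0.78 for Map2k3os. Mapk8ip3, Mapk1ip1 and Mapk1ip1l ranged from -0.15 to 0.36.

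The genotypes were compared within each surgery. In sham muscle 1 member (1.61%) was at least 2-fold apart between KS and WS, where 2.04% of all genes were, and in denervated muscle 0 members were between KD and WD, where 1.55% of all genes were. The member apart in sham muscle was Dusp2, which was lower in KS as 1.15% of all genes were, with a log2 ratio of KS over WS of -1.59 (-3.19 to -0.59), from 8 against 22 counts. In the second deposited table that ratio was -0.62, under 2-fold. In denervated muscle the ratio of KD over WD was -0.74 (-1.12 to -0.38). The macrophage markers summed to nearly the same level in the 2 genotypes within each surgery, but single markers were divided. For KS over WS, Itgam was at -1.88 (-3.19 to -1.06), from 11 against 36 counts. Ptprc was at -0.58 and Adgre1 at -0.52, with intervals that held 0. Csf1r was at 0.18, C1qa at 0.15, Cd68 at 0.11, Lyz2 at 0.07 and Mrc1 at 0.003. The part of these cells in the Dusp2 ratio was not tested. The counting interval left out 0 for 19 members in sham muscle and for 19 in denervated muscle, against 34.3% and 28.2% of all genes.

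Dusp10 (0.37, 0.28 to 0.47), Dusp14 (0.45, 0.17 to 0.73), Dusp19 (0.53, 0.23 to 0.83) and Map2k3os (0.51, 0.17 to 0.87) had higher values in KS than in WS. Map4k4 (-0.31, -0.47 to -0.16) and Mapk8ip1 (-0.49, -0.85 to -0.14) had lower ones. In denervated muscle Dusp10 was on the other side, at -0.26 (-0.40 to -0.12) for KD over WD, and Map4k4 at 0.17 (0.08 to 0.26). Kinases with low counts had larger values there. Map3k8 was at -0.66 (-1.26 to -0.12), from 43 against 73 counts, and Map3k15 at 0.59 (0.15 to 1.07), from 101 against 70.

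**Figure D4:**
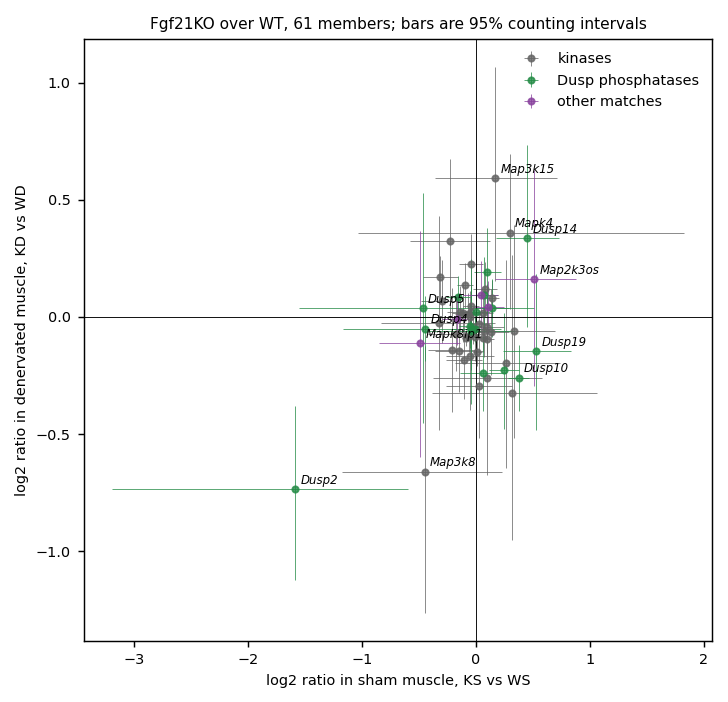
Log2 ratio of Fgf21KO over WT in sham muscle (x axis) against that in denervated muscle (y axis) for 61 members, with 95% counting intervals. Most members lie near 0 on both axes, and Dusp2 lies apart at -1.59 and -0.74.

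The denervation ratio differed by 1 or more on the log2 scale between genotypes in 0 members, where 4.11% of all genes did. The counting interval of the difference left out 0 for 14 members, against 30.1% of all genes. For Dusp10 the Fgf21KO ratio was lower than the WT ratio by a difference of -0.63 (-0.80 to -0.47), for Dusp19 by -0.67 (-1.12 to -0.24) and for Dusp7 by -0.48 (-0.75 to -0.20). For Map4k4 it was higher, by 0.48 (0.31 to 0.66), and for Mapk7 by 0.55 (0.08 to 1.03). These intervals leave out the spread between mice, and with 1 library per group the difference between genotypes could not be tested.

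Genes of the same pathway outside the family were taken from a list of 81, of which 71 were tested. Of these, 10 were at least 2-fold higher and 7 lower in WT, 12 higher and 7 lower in Fgf21KO, and the additive test called 11 higher and 8 lower (26.8%). Over all genes tested 14.8% were apart in WT and 13.6% in Fgf21KO, and the additive test called 13.1%. Of the 71 genes 0 were 2-fold apart between genotypes in sham or in denervated muscle, where 2.04% and 1.55% of all genes were. The median log2 ratio of the 71 genes was 0.03 in WT and 0.01 in Fgf21KO. Upstream of the cascade, Rras (1.94 and 2.34) and Rras2 (1.14 and 1.15) rose. Of the Gadd45 genes, whose proteins bind Map3k4, Gadd45a rose and the others fell. Gadd45a had 648 counts in WS and 810 in KS, against 23083 in WD and 21870 in KD, with ratios of 4.66 and 4.69. Gadd45b had 838 counts in WS and 1192 in KS, against 198 in WD and 145 in KD. Gadd45g had ratios of -1.52 and -1.62. In denervated muscle Gadd45a was the most abundant of them, at 707 CPM in WD and 707 in KD.

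Among 13 transcription factors that MAP kinases act on, 6 rose and 1 fell, where the same test called 6.84% of all genes higher and 6.24% lower. Junb went from 147 to 1236 counts in WT and from 159 to 1013 in Fgf21KO, and Jun, Atf3, Elk1, Fosl2 and Myc also rose. Elk3 fell. Of 7 effector kinases, Mknk2, which phosphorylates the translation factor eIF4E, rose (1.32 and 1.51) and Rps6ka2, an ERK-activated ribosomal S6 kinase, fell (-1.35 and -1.41). Tab2, an adaptor of the MAP3K TAK1, fell (-1.30 and -1.46), and Map3k7, which encodes TAK1, had ratios of -0.16 and -0.18. Of the phosphatases that act on MAP kinases without dual specificity, Ppm1a fell (-1.05 and -1.11).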

How the data were processed

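Poly(A) RNA of TA muscle was sequenced from stranded TruSeq libraries, 1 pooled library per group. The authors deposited raw read counts for each gene. A second deposited table, on a log2 scale, is named for FPKM, but its values are counts scaled by library with 1 added before the log, with no length correction. It was used only as an alternative. The submitters' processing notes name GRCm39 and FastQC. The aligner, counter and strand setting were not given in the sources used here.

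Counts were analysed in R 4.3.3 with edgeR 4.0.16 (TMM, log2 CPM at a prior count of 2, mean count of at least 10), with DESeq2 1.42.0 as an alternative, and in Python 3.11.15 with scipy 1.17.1 and pandas 2.3.3. The exact conditional binomial gave 95% intervals around the ratio without a prior count. The additive model (genotype and surgery) was tested by quasi-likelihood in edgeR, with p adjusted by Benjamini-Hochberg and thresholds of 0.05 and 2-fold, and genotype also blocks the legs of the same mice. Its script was tested on simulated data. CPM was divided by the exon length of GENCODE M21 (GRCm38) for levels per kilobase, which all 62 members had. Positions are those of that annotation. Promoters of 51 of 62 members were matched in the RefSeq table of GRCm38.p6. The Dusp4 promoter and protein sequences were not analysed here.

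Members given with values in every library were those at least 2-fold apart in a comparison, the classical MAPKs and ERK5, and the most abundant of each class. A result that the rule covers is not reported here and is absent from the figures, while counts over lists include every member. Others, and the genes outside the family given with values, were picked as examples after their values were seen. The members and lists were chosen with earlier results of these data known. Alternatives were DESeq2's size factors and Wald test, total counts only, other filters and prior counts, the second table with pseudocounts of 1 and 0.1, no fold threshold and no genotype term. Total counts relative to the median of all genes was added after seeing the data.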

Additional observations from a re-analysis of the deposited data

How the results depend on the processing

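With total counts only, 2-fold calls numbered 8 for WD vs WS and 10 for KD vs KS, and the additive test called 9. Relative to the median of all genes, an alternative chosen after seeing the data, the counts under that scaling were 14 and 15 again. Total counts changed the sign of 8 of the 62 members with denervation in WT and of 8 in Fgf21KO, and between genotypes of 10 in sham and 0 in denervated muscle. Among them were Dusp3 (0.15 in WT and 0.18 in Fgf21KO with denervation), Mapk8 in WD vs WS (0.15) and Mapk12 in KS vs WS (-0.0195). By adjusted p alone, with no fold threshold, the additive test called 43 members, 13 higher and 30 lower, where 53.5% of all genes were called. The additive count was 16 with DESeq2's size factors, with DESeq2's Wald test and without the genotype term, 15 without a filter and 14 at a mean count of at least 50, where Dusp5 was not tested and Map3k6 was just under 2-fold (-0.996). In KS vs WS, 0 members were 2-fold apart in the second table with a pseudocount of 1, since the ratio of Dusp2 there was -0.62. At the lowest prior count tried, 1 member, Dusp2, had denervation ratios at least 1 apart between genotypes (1.05). Of 784 values of 28 named members under these alternatives, 731 moved by less than their counting error, 49 moved further and 4 changed sign from a value whose interval left out 0. No paired analysis by replicate number was run, since the libraries carry none. The genotype term of the additive model pairs the pooled legs of the same mice. No library could be left out, since each group has 1 and the additive model would keep no residual degree of freedom. Depth limits Mapk4, Dusp2 and Dusp5 most, with sham counts from 8 to 22.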
